A study of Mus musculus with 11 samples.

Results

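The Wnt genes described here are 53 genes of secreted Wnt ligands, their receptors, their extracellular modulators and their feedback inhibitors, of 24515 genes in the deposited table. They were picked out by gene symbol, with earlier results of these data known. They hold 19 Wnt ligands, 10 Frizzled receptors (Fzd), 4 Dickkopf proteins (Dkk), 4 secreted Frizzled-related proteins (Sfrp), 4 R-spondins (Rspo), the R-spondin receptors Lgr4, Lgr5 and Lgr6, the co-receptors Lrp5 and Lrp6, the Wnt inhibitor Wif1 and 6 feedback genes (Axin2, Notum, Nkd1, Nkd2, Znrf3 and Rnf43). Their transcripts number 65 of 36285 in the table. RNA was sequenced from 3 lung tumors tagged ADN, 3 lung tumors tagged ADC and 5 adjacent normal lungs of 5 mice. All mice lacked both alleles of Gprc5a (Gprc5a-/-), a receptor of the lung epithelium. For 8 weeks all had received NNK, a nitrosamine of tobacco, 3 times a week at 50 mg per kg. Both an ADN and an ADC tumor came from mouse m335, at 4 months after NNK, and both are set against its 1 normal lung. The ADN tumor of mouse m368 was taken at 6 months, and the ADN tumor of mouse m350 and the ADC tumors of mice m372 and m378 at 7 months. What the tags stand for is not written out in the labels. Gprc5a wild-type lungs and lungs without NNK were not analysed here, so every group shares the gene loss and the carcinogen.

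Wnt ligands are lipid-modified secreted proteins that bind a Frizzled receptor together with the co-receptor Lrp5 or Lrp6. In the canonical branch this stops the destruction of β-catenin, which then activates genes with TCF and LEF factors in the nucleus, while other branches steer cell polarity and movement. R-spondins strengthen the response by binding Lgr receptors and drawing the ubiquitin ligases Rnf43 and Znrf3 away from Frizzled, whereas Dkk, Sfrp and Wif1 proteins act outside the cell, mostly as inhibitors. In the lung, Wnt signals from fibroblasts are known to maintain alveolar type 2 cells, and Wnt2 and Wnt2b are required in the embryo for the lung to form.

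Library totals ranged from 19938822 to 46987587 counts. The 53 genes together took 0.0517% to 0.0919% of them in tumors and 0.095% to 0.13% in normal lungs. On these unscaled totals the highest tumor (ADC, mouse m378) lay just below the lowest normal lung (mouse m372). The TMM factors that scale library sizes below were 0.921 for this tumor and 1.11 for this normal lung. With them their order is reversed, so the separation of the groups depends on the scaling. Gprc5a had at most 19 counts in any library. Marker sums are in CPM, the usual depth-scaled count unit, on library sizes adjusted by the TMM method, as are all levels below unless a length is named. Alveolar type 2 cell markers summed to 119000 to 147000 CPM in 5 tumors and to 46100 CPM in the ADC tumor of mouse m335, against 54100 to 68400 CPM in normal lungs. That ADC tumor also had the highest sums of T cell and B cell markers among the tumors, with a B cell sum of 1210 CPM against 113 to 265 CPM in the others. Among normal lungs, that of mouse m372 had the highest sum of T cell and thymocyte markers (783 CPM), that of mouse m335 the highest of skeletal muscle markers (688 CPM) and that of mouse m368 the highest of adipocyte and alveolar macrophage markers (406 and 9390 CPM). In mouse m335 the level of Xist, an RNA of the inactive X chromosome, reached 16.7 CPM (ADN) and 8.89 CPM (ADC), against 1.22 CPM in its normal lung. The Y-linked gene Ddx3y was expressed in all 3 of these libraries, and the source of the Xist reads was not tested. Ddx3y was also expressed in mouse m372, at 26.1 CPM (ADC) and 45.2 CPM (normal). In the libraries of mice m368, m350 and m378 it had at most 0.454 CPM, with Xist at 153 to 258 CPM. By these genes the mice were of both sexes.

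The promoters of the ligands Wnt2 and Wnt3a, the feedback gene Axin2 and the modulator Dkk2 are shown because the first 3 are the proximal sequences of genes that fell in both kinds of tumor and the last is that of the gene that rose most. Each is the 250 bases before the first transcribed base of the counted transcript (RefSeq, GRCm38.p6), read on the strand of the gene, with the CpG dinucleotides in capitals.
Wnt2, chr6:18030446-18030695, minus strand: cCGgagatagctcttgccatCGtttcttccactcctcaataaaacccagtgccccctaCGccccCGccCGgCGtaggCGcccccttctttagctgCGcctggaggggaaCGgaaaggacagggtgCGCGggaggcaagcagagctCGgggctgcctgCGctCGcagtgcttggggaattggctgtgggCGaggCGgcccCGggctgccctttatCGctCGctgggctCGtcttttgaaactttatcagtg
Wnt3a, chr11:59290752-59291001, minus strand: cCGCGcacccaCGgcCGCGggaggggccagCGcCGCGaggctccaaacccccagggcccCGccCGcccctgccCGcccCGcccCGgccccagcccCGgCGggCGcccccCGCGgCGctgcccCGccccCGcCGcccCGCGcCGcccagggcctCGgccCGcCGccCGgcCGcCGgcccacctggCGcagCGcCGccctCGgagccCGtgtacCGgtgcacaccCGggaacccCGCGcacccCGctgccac
Axin2, chr11:108920099-108920348, plus strand: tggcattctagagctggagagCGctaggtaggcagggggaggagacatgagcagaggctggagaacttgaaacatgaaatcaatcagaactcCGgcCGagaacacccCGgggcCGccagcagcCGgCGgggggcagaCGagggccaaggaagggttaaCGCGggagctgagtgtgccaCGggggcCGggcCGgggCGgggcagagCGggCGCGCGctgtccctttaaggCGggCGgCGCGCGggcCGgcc
Dkk2, chr3:132085042-132085291, plus strand: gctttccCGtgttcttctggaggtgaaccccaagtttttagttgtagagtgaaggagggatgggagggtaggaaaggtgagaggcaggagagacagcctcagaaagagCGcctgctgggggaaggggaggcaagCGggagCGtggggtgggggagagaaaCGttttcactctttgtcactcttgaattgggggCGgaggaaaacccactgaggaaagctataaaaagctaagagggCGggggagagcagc
The promoters of Wnt3a, Axin2 and Wnt2 held 41, 24 and 20 CpG dinucleotides, 0.927, 0.86 and 0.791 of the number their base composition predicts. That of Dkk2 held 7, a ratio of 0.449, which was the lowest among the 9 genes with a changed level that have a promoter in the RefSeq table used. The median ratio over all 32851 promoter windows was 0.373. The letters CTTTGAT and CTTTGAA, the core of the motif bound by TCF and LEF factors, were searched on both strands of the 250 bases before the start. They were found in 3 of the 34 Wnt genes with a window (Dkk1, Wnt11 and Wnt5b), or in 7.89% of their 38 windows, against 7.48% of all windows, and in none of the 9. A match describes these letters in this window only.

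Of the 53 genes, 37 passed the filter on low counts and were tested, and 16 did not. Relative to the normal lungs, 12 of the 37 changed in tumors at an adjusted p under 0.05 (edgeR quasi-likelihood test with the mouse as a block), or 32.4%, where 11.6% of all 15175 genes tested did. Dkk2, Wnt7b and Fzd5 were higher (8.11% of the Wnt genes tested, against 3.68% of all genes). Wnt2, Wnt2b, Wnt3a, Wnt9a, Rspo1, Sfrp2, Dkk3, Notum and Axin2 were lower (24.3%, against 7.91%). Among the 37 genes tested, the same 12 were those whose tumor and normal levels did not overlap, with 3 higher in all tumors (3.55% of all genes) and 9 lower (7.91%). The median log2 fold change was -0.67 over the 37 genes, of which 29 were below 0, and -0.03 over all genes, of which 52.1% were below 0. With single tumors set against their own normal lungs, the median over the 37 genes was below 0 in each of the 6 tumors, at -0.64, -1.1 and -0.59 in the ADN tumors and -0.74, -0.34 and -0.87 in the ADC tumors of the mice in the order given above. The tissue is bulk lung, in which fewer cells of a type and less RNA per cell cannot be told apart.

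**Figure D1:**
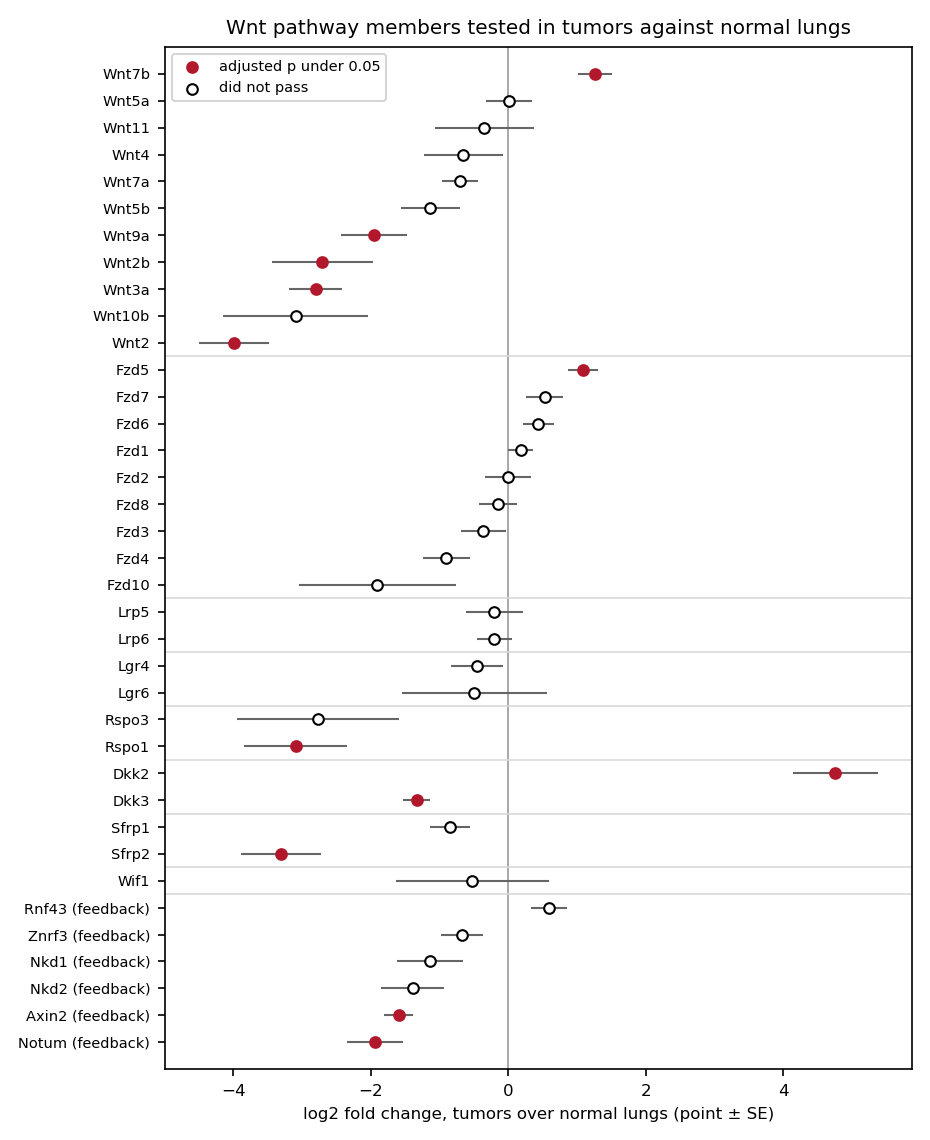
Log2 fold change of tumors over normal lungs for each of the 37 Wnt genes tested, grouped by family, with the SE as bars and genes with an adjusted p under 0.05 filled in red. Dkk2 stands alone at 4.76, and Wnt2 is the lowest at -3.99.

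The ligands are described first by level. Per kilobase of transcript, Wnt2 was the most abundant ligand of the normal lungs at 13.9 CPM per kilobase, followed by Wnt4 (5.26), Wnt7a (5.12), Wnt3a (4.82), Wnt7b (3.46) and Wnt9a (3.11). In tumors the highest means per kilobase were those of Wnt7b (8.65), Wnt4 (7.74), Wnt7a (3.25) and Wnt11 (3.15), and that of Wnt2 was 1.15. The place of Wnt4 rests on the ADN tumor of mouse m368, and by tumor medians per kilobase the order was Wnt7b (7.17), Wnt7a (2.75), Wnt11 (2.65) and Wnt4 (2.53). The 19 ligands summed to 30.1 ± 12 CPM per kilobase in tumors (SD, n = 6) and 44.1 ± 2.1 CPM per kilobase in normal lungs (SD, n = 5), and the ranges of 19.5 to 53.2 and 40.7 to 46.1 overlapped. Among the 11 ligands tested, 4 fell and 1 rose, where 7.91% of all genes fell and 3.68% rose.

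Wnt2 (chromosome 6, 17988940 to 18030445) is a ligand made mainly by lung mesenchyme. It had 1.57, 7.64 and 3.39 CPM in the ADN tumors of mice m335, m368 and m350 and 0.71, 1.15 and 1.14 CPM in the ADC tumors of mice m335, m372 and m378. The normal lungs of mice m335, m368, m350, m372 and m378, an order kept throughout for each group, had 31.6, 29.0, 27.7, 30.6 and 37.6 CPM. All tumors were far below all normal lungs, and the 3 ADC tumors were the 3 lowest. Wnt2 fell by 3.99 ± 0.51 on the log2 scale (SE, 15.9-fold lower, adjusted p = 0.00181). It fell by 3.06 ± 0.45 in ADN tumors (adjusted p = 0.0111) and by 4.92 ± 0.48 in ADC tumors (adjusted p = 0.00446). Without the ADN tumor of mouse m335 the ADN value was -2.47. The difference of -1.86 ± 0.56 between ADC and ADN tumors had an adjusted p of 0.737. Its relative Wnt2b, also of the mesenchyme, had 0.703, 0.0349 and 0.464 CPM in ADN tumors and 0.541, 0.738 and 1.22 CPM in ADC tumors, against 3.17, 5.72, 2.69, 3.18 and 3.35 CPM in normal lungs. The groups did not overlap, and Wnt2b fell by 2.70 ± 0.73 (adjusted p = 0.0466), a call that was lost in 10 settings at adjusted p-values of 0.0517 to 0.12. In the mice at 7 months the log2 fold change was -1.99 (adjusted p = 0.0517).

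Wnt3a, the ligand most used to activate the canonical branch in culture, and Wnt9a, a ligand known from joint and limb development, lie 16.2 kilobases apart on chromosome 11 (59248042 to 59290751 and 59306930 to 59333552). Wnt3a had 1.67, 1.99 and 1.82 CPM in ADN tumors and 0.575, 3.44 and 2.37 CPM in ADC tumors, against 14.8, 13.3, 14.0, 12.6 and 11.9 CPM in normal lungs. The normal lungs lay close together and every tumor was well below them. The fall was 6.95-fold, at -2.80 ± 0.38 (adjusted p = 0.00233). Wnt9a had 1.41, 3.84 and 4.68 CPM in ADN tumors and 0.575, 3.74 and 3.28 CPM in ADC tumors, against 13.1, 8.8, 8.51, 11.9 and 9.27 CPM in normal lungs. Again no tumor reached a normal lung, and Wnt9a fell by 1.95 ± 0.48 (adjusted p = 0.0316). For both genes the lowest level was in the ADC tumor of mouse m335. Without the normal lung of that mouse the log2 fold change of Wnt9a was -1.31, and its call was lost there and in 8 other settings, at adjusted p-values of 0.0506 to 0.0825.

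Wnt7b, an epithelial ligand needed in the embryonic lung for growth of the airways and vessels, was the ligand that rose. It had 24.1, 21.3 and 28.9 CPM in ADN tumors and 21.2, 16.2 and 52.8 CPM in ADC tumors, against 11.1, 9.01, 15.5, 8.9 and 9.78 CPM in normal lungs. The lowest tumor was just above the highest normal lung, and mouse m378 had the highest tumor level. Wnt7b rose by 1.26 ± 0.25 (2.4-fold, adjusted p = 0.0129), and its estimates of 1.17 ± 0.32 in ADN tumors (adjusted p = 0.0681) and 1.37 ± 0.34 in ADC tumors (adjusted p = 0.0632) did not pass on their own. Its exons overlap those of AU022754 on the opposite strand, which had 1 to 31 counts in each library. The authors' estimates split Wnt7b over 3 transcripts, and NM_001163633 took 18.2%, 75.7% and 21.0% of its counts in ADN tumors and 37.3%, 6.65% and 14.6% in ADC tumors. In normal lungs the share was 3.56% to 14.1%, so the ADC tumor of mouse m372 lay inside that range.

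Wnt4, a ligand of several developing organs, had 1 library far above the rest. It had 11.9, 143.0 and 6.14 CPM in ADN tumors and 15.1, 9.3 and 9.16 CPM in ADC tumors, against 23.1, 20.4, 16.1, 28.2 and 22.5 CPM in normal lungs. Mouse m368's ADN tumor held 71.8% of the counts in tumors, and the other 5 tumors were all below all normal lungs. The log2 fold change was -0.65 ± 0.58 (adjusted p = 0.535), and without that ADN tumor it was -1.23 (adjusted p = 0.0126). The 3 ligands below, chosen after their values were seen, were lower in every tumor than in its own normal lung without passing the test. These were Wnt7a (-0.70 ± 0.26, adjusted p = 0.121), Wnt5b (-1.13 ± 0.43, adjusted p = 0.133) and Wnt10b (-3.09 ± 1.05, adjusted p = 0.0981). For the others tested, Wnt5a, a ligand of the non-canonical branch, had 5.23 to 12.2 CPM in tumors and 6.42 to 12.7 CPM in normal lungs, and Wnt11 had 0.558 to 14.0 CPM in tumors and 2.69 to 8.94 CPM in normal lungs. Both ranges overlapped, with adjusted p-values of 0.988 and 0.815.

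**Figure D2:**
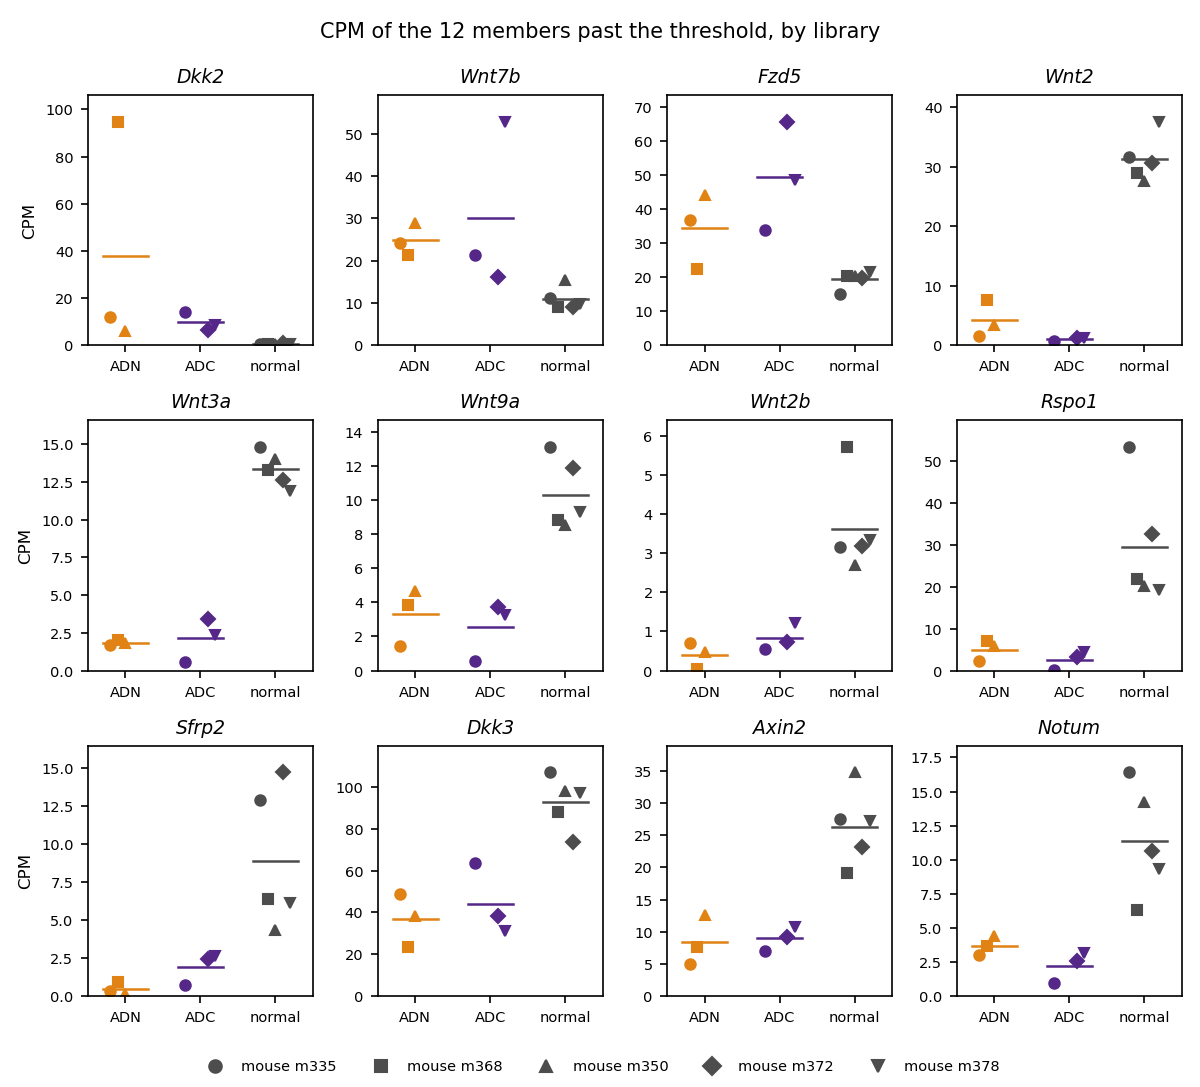
Level of each of the 12 Wnt genes that changed in tumors, in CPM, with 1 point per library, a marker shape per mouse and a line at the group mean, for ADN tumors, ADC tumors and normal lungs. In every panel the tumors lie on 1 side of all 5 normal lungs, and Dkk2 reaches 94.8 CPM in the ADN tumor of mouse m368.

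Of the receptors, Fzd5 rose, and no Frizzled gene fell. Fzd5, an epithelial receptor of the canonical branch, had 36.7, 22.3 and 44.1 CPM in ADN tumors and 33.7, 65.6 and 48.5 CPM in ADC tumors, against 15.1, 20.4, 20.2, 19.7 and 21.5 CPM in normal lungs. The ADN tumor of mouse m368 was only just above the highest normal lung. The increase was 1.09 ± 0.22 on the log2 scale (2.13-fold, adjusted p = 0.015), with 1.26 ± 0.28 in ADC tumors (adjusted p = 0.0459) and 0.92 ± 0.28 in ADN tumors (adjusted p = 0.0847). Leaving out 1 library lost the call of Fzd5 in 7 settings, at adjusted p-values of 0.0563 to 0.065.

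Fzd7 and Fzd1, both receptors with broad expression, were the most abundant Frizzled genes, with means of 62.5 ± 25 and 61.5 ± 20 CPM in tumors (SD, n = 6) and 45.1 ± 9.5 and 50.0 ± 4.3 CPM in normal lungs (SD, n = 5). Their estimates were 0.53 ± 0.27 (adjusted p = 0.269) and 0.18 ± 0.18 (adjusted p = 0.594). Fzd7 had 19.5 CPM in the ADC tumor of mouse m335 and 55.6 to 94.2 CPM in the other tumors, and without that ADC tumor its log2 fold change was 0.70 (adjusted p = 0.0139). Fzd4, known as a receptor of endothelial cells and chosen here after its values were seen, had 22.2, 33.9 and 16.3 CPM in ADN tumors and 6.12, 16.8 and 19.3 CPM in ADC tumors, against 28.8, 45.7, 54.7, 21.5 and 36.2 CPM in normal lungs. It was lower in every tumor than in its own normal lung, with overlap between the groups (-0.90 ± 0.34, adjusted p = 0.131). Summed over the family, Frizzled genes had 52.0 ± 10 CPM per kilobase in tumors and 43.8 ± 3.6 CPM per kilobase in normal lungs. Lrp5 had 126, 122 and 118 CPM in ADN tumors and 32.3, 153 and 191 CPM in ADC tumors, against 197, 116, 158, 93.1 and 134 CPM in normal lungs. The ADC tumor of mouse m335 was alone below the normal range (-0.20 ± 0.41, adjusted p = 0.813). Lrp6 had 37.7 to 94.1 CPM in tumors and 64.8 to 86.6 CPM in normal lungs (-0.20 ± 0.26, adjusted p = 0.689).

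Of the R-spondins 2 were tested, and 1 of them, Rspo1, fell. Rspo1, the most abundant of the family and known in lung from the mesothelium and mesenchyme, had 2.18, 6.98 and 5.78 CPM in ADN tumors and 0.169, 3.21 and 4.5 CPM in ADC tumors, against 53.2, 21.7, 20.2, 32.5 and 19.1 CPM in normal lungs. The highest tumor was below the lowest normal lung, and mouse m335 had the highest normal level. Rspo1 fell by 3.09 ± 0.75 (8.54-fold lower, adjusted p = 0.0309), and without that normal lung the log2 fold change was -2.21. The call was lost in 9 settings, at adjusted p-values of 0.0547 to 0.0943. Rspo3, which endothelial cells are known to make, had 0.301, 2.34 and 0.0 CPM in ADN tumors and 2.1, 0.115 and 0.197 CPM in ADC tumors, against 2.69, 2.05, 1.86, 2.86 and 1.93 CPM in normal lungs. A pair of tumors reached the normal range, and the estimate of -2.77 ± 1.18 did not pass (adjusted p = 0.177). The 4 R-spondins summed to 2.37 ± 1.4 CPM per kilobase in tumors and 17.0 ± 8 CPM per kilobase in normal lungs, with ranges of 0.782 to 4.56 and 11.3 to 30.2 that did not overlap. Rspo1 alone had 2.07 and 16.0 CPM per kilobase, so these sums mostly repeat its values.

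Rspo2 and Rspo4 were under the filter, with 4 and 9 counts over all tumors and 40 and 80 over all normal lungs. Both were lower in every tumor than in any normal lung, and these sums correspond to ratios of 0.0849 (95% interval from counting error only, 0.0221 to 0.235) and 0.0956 (0.0422 to 0.191). The separation of Rspo2 rests on at most 1 count in each tumor, against 2 counts in the lowest normal lung, that of mouse m372. For Rspo4, 8 of the 9 tumor counts were in the ADN tumor of mouse m335, and without it the ratio was 0.0127 (0.000317 to 0.0726). Lgr5, the stem cell receptor of R-spondins, was also under the filter, with 24 counts in tumors and 104 in normal lungs (ratio 0.196, 0.12 to 0.308). It had 0.0357 to 0.209 CPM in tumors, against 0.227, 0.435, 0.65, 1.91 and 0.54 CPM in normal lungs, and no tumor reached a normal lung. Lgr4, the widely expressed R-spondin receptor, had 1.44, 2.34 and 2.64 CPM in ADN tumors and 3.82, 6.3 and 5.05 CPM in ADC tumors, against 3.6, 5.94, 4.24, 6.17 and 4.52 CPM in normal lungs. The ADN tumors were all below every ADC tumor and every normal lung. The estimates were -1.12 ± 0.39 in ADN tumors (adjusted p = 0.124), 0.13 ± 0.37 in ADC tumors (adjusted p = 0.9) and 1.25 ± 0.49 for ADC over ADN (adjusted p = 0.744). Lgr6, a receptor of the same family, had 0.0349 to 3.21 CPM in tumors and 0.526 to 1.06 CPM in normal lungs (-0.49 ± 1.06, adjusted p = 0.822). Its estimate was 0.28 without the ADN tumor of mouse m368 and -1.27 with mouse m335's normal lung left out.

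The secreted modulators moved in both directions. Dkk2 (chromosome 3, 132085292 to 132180304) binds Lrp5 and Lrp6 and can act as an inhibitor or, in some settings, as an activator. It had 12.1, 94.8 and 6.11 CPM in ADN tumors and 14.0, 6.44 and 8.53 CPM in ADC tumors, against 0.595, 0.435, 0.34, 0.726 and 0.313 CPM in normal lungs. Every tumor was well above every normal lung, and 65.3% of the counts in tumors came from the ADN tumor of mouse m368. Dkk2 rose by 4.76 ± 0.62 on the log2 scale (27.0-fold, adjusted p = 0.00194), and without that tumor the estimate was 4.15 (adjusted p = 0.00223), or 4.14 without its normal lung. The increase was 5.21 ± 0.77 in ADN tumors (adjusted p = 0.0111) and 4.42 ± 0.69 in ADC tumors (adjusted p = 0.013). The ADN estimate was 4.13 without the ADN tumor of mouse m368 and 6.05 (adjusted p = 0.0888) without that of mouse m335.

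Dkk3, a divergent Dickkopf protein that does not act as a classical inhibitor of Lrp5 and Lrp6, was the most abundant of the family. It had 48.8, 23.4 and 38.5 CPM in ADN tumors and 63.5, 38.2 and 31.0 CPM in ADC tumors, against 107, 88.2, 98.2, 73.5 and 97.2 CPM in normal lungs. No tumor reached the lowest normal lung, and Dkk3 fell by 1.33 ± 0.20 (2.52-fold lower, adjusted p = 0.00341). Sfrp2, a Wnt-binding protein of fibroblasts, had 0.335, 0.942 and 0.143 CPM in ADN tumors and 0.71, 2.42 and 2.61 CPM in ADC tumors, against 12.9, 6.37, 4.36, 14.7 and 6.14 CPM in normal lungs. The groups did not overlap, and the fall of 3.30 ± 0.58 was 9.82-fold (adjusted p = 0.00777), with -2.68 when all libraries of mouse m335 were left out. Sfrp1, the most abundant Sfrp gene and also a Wnt-binding inhibitor, had 26.7, 14.4 and 10 CPM in ADN tumors and 39.7, 11.4 and 22.9 CPM in ADC tumors, against 26.1, 36.7, 20.2, 32.7 and 42.2 CPM in normal lungs. Both tumors of mouse m335 were above its normal lung, the other 4 tumors were below theirs, and the estimate of -0.85 ± 0.29 did not pass (adjusted p = 0.103). With the libraries of mouse m335 and mouse m368 left out, so that mice at 7 months remained, it was -1.10 (adjusted p = 0.00708).

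Wif1, a secreted protein that binds Wnt ligands, was split by tumor tag. Outside mouse m335 the tags came from different mice, so tag cannot be told apart there from mouse, sex or time after NNK. It had 2.95, 1.74 and 1.75 CPM in ADN tumors and 0.0338, 0.3 and 0.632 CPM in ADC tumors, against 1.64, 0.839, 0.835, 3.63 and 2.02 CPM in normal lungs. Each ADN tumor was above its own normal lung, and each ADC tumor was below it and below all ADN tumors and all normal lungs. The levels rest on few reads, with 1, 13 and 16 counts in ADC tumors, 49 to 88 in ADN tumors and 27 to 80 in normal lungs. The log2 fold change of ADC over ADN tumors was -4.55 ± 1.11, with an unadjusted p of 0.00342 and an adjusted p of 0.706 (edgeR quasi-likelihood test). DESeq2 gave an adjusted p of 0.00197 for the same contrast, the lowest of 18 alternatives, which reached 0.999. Their log2 fold changes ran from -5.42 to -2.74, the value of -2.74 being that without the mouse block, and it was -3.65 without the ADC tumor of mouse m335.

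Among the feedback genes, which canonical Wnt signalling is known to induce and which dampen it in turn, Axin2 and Notum fell. Axin2, a scaffold of the β-catenin destruction complex and the most used reporter of canonical signalling, had 4.92, 7.57 and 12.6 CPM in ADN tumors and 6.93, 9.18 and 10.8 CPM in ADC tumors, against 27.6, 19.1, 34.8, 23.2 and 27.2 CPM in normal lungs. Every tumor was below every normal lung. Axin2 fell by 1.59 ± 0.21 (3.01-fold lower, adjusted p = 0.00201), by 1.72 ± 0.30 in ADN tumors (adjusted p = 0.0154) and by 1.46 ± 0.29 in ADC tumors (adjusted p = 0.0292). Notum, an enzyme that removes the lipid from Wnt ligands, had 3.01, 3.66 and 4.39 CPM in ADN tumors and 0.981, 2.54 and 3.12 CPM in ADC tumors, against 16.4, 6.34, 14.2, 10.6 and 9.32 CPM in normal lungs. The groups did not overlap, and Notum fell by 1.94 ± 0.41 (adjusted p = 0.0171), a call that was lost in 7 settings at adjusted p-values of 0.0511 to 0.08.

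Nkd1 and Nkd2, which bind Dishevelled and limit the signal, did not pass the test. Nkd1 was the most abundant of the 53 genes per kilobase in normal lungs, at 69.2 CPM per kilobase. It had 43.2, 70.0 and 81.9 CPM in ADN tumors and 55.0, 234 and 200 CPM in ADC tumors, against 340, 144, 235, 133 and 214 CPM in normal lungs. The ADN tumors and the ADC tumor of mouse m335 were below all normal lungs, and the other ADC tumors were within the normal range (-1.14 ± 0.48, adjusted p = 0.171). The estimate was -0.47 with mouse m335's normal lung left out and -0.23 in the mice at 7 months. By the authors' estimates its transcript NM_001163660 took 88.1% of the Nkd1 counts in the ADN tumor of mouse m368 and 36.9% in the ADC tumor of mouse m335. It took 1.14% to 5.04% in the other tumors and 1.01% to 9.9% in normal lungs. Nkd2 had 1.82 to 9.37 CPM in tumors and 5.45 to 19.7 CPM in normal lungs, and 5 of 6 tumors were below their own normal lung (-1.39 ± 0.46, adjusted p = 0.0899).

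The ubiquitin ligases that remove Frizzled from the membrane, Znrf3 and Rnf43, had estimates on opposite sides of 0, and neither passed. Znrf3 had 7.36, 6.94 and 21.1 CPM in ADN tumors and 4.46, 18.9 and 15.3 CPM in ADC tumors, against 17.3, 18.1, 19.5, 19.3 and 16.8 CPM in normal lungs (-0.67 ± 0.31, adjusted p = 0.212). The normal lungs were nearly level, and the tumors lay on both sides of them. Its transcript NM_001080924 took 11.4%, 1.79% and 2.3% of its counts in ADN tumors and 34.3%, 12.2% and 28.3% in ADC tumors, against 20.5% to 34.9% in normal lungs. These shares are the authors' estimates, and the ADN tumors were below all the others. Rnf43 had 12.8 to 30.2 CPM in tumors and 12.3 to 19.4 CPM in normal lungs (0.59 ± 0.26, adjusted p = 0.189). The ADC tumor of mouse m335 was the lowest tumor, and without it Rnf43 had a log2 fold change of 0.77 (adjusted p = 0.025).

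**Figure D3:**
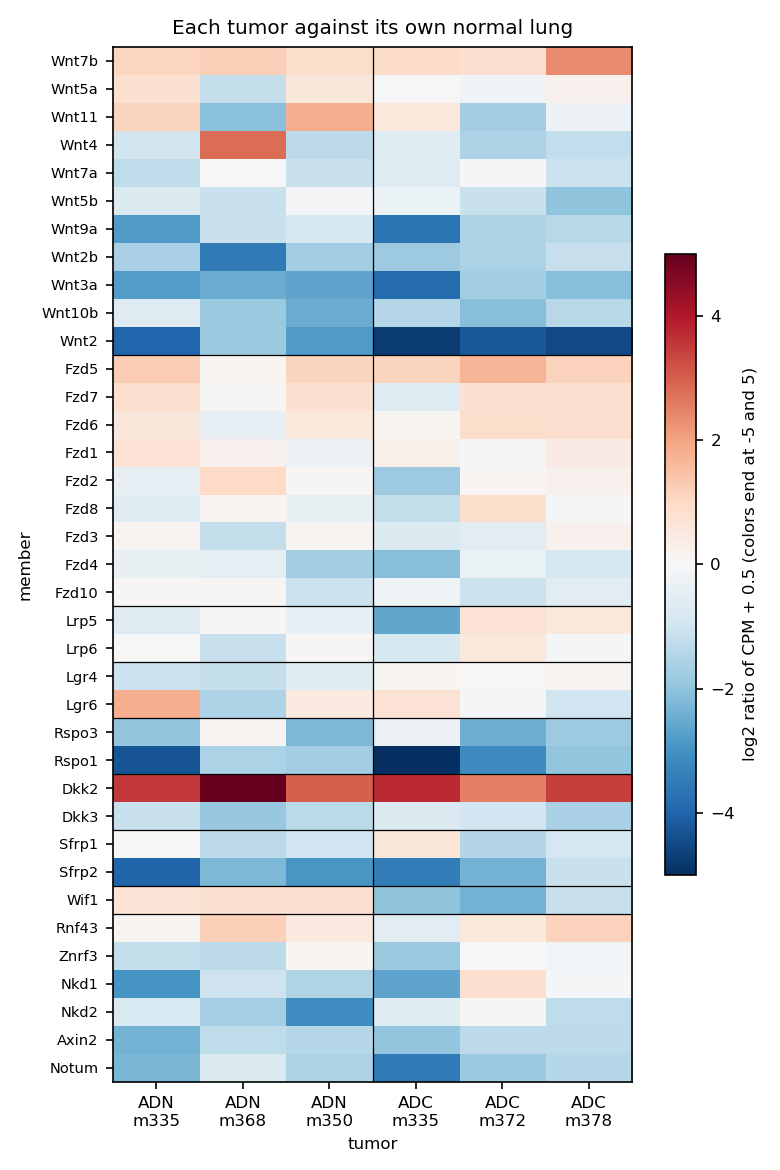
Log2 ratio of each tumor over its own normal lung for the 37 Wnt genes tested, after adding 0.5 CPM, with ADN tumors left of ADC tumors and red for higher and blue for lower in the tumor. Wnt2, Wnt3a, Axin2 and Dkk3 are blue and Dkk2 is red in all 6 columns, while Wnt4 is red in the ADN tumor of mouse m368 alone.

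In ADN tumors 6 of the 37 genes changed, or 16.2%, against 7.53% of all genes tested. Dkk2 was higher (2.68% of all genes were), and Axin2, Dkk3, Sfrp2, Wnt2 and Wnt3a were lower (4.84% of all genes). In ADC tumors 7 changed, or 18.9%, against 4.99%. Dkk2 and Fzd5 were higher (1.01% of all genes were), and Axin2, Dkk3, Notum, Wnt2 and Wnt3a were lower (3.98% of all genes). The fits share the normal lungs. Between ADC and ADN tumors directly, none of the 37 genes passed the test, and 0 of 15175 genes did (0.0%). With 3 tumors of each tag, this does not show that their levels are alike. At an unadjusted p under 0.05 this contrast gave 3 of the 37 genes, Wif1, Wnt2 and Lgr4, and 6.54% of all genes. DESeq2 called 125 genes there, among them Wif1. Without the ADN tumor of mouse m335 none of the 37 genes passed in ADN tumors, and without the ADN tumor or the normal lung of mouse m350 1 did.

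Among the tumors, several ligands had most of their counts in 1 library. Wnt10a and Wnt6 are neighbors on chromosome 1, 6.7 kilobases apart (74792019 to 74804175 and 74771892 to 74785319), and are ligands known from skin and its appendages. Wnt10a had 285 counts in the ADC tumor of mouse m335 and 10 in the other 5 tumors together, against 41 in the normal lungs. Wnt6 had 136 counts in the same ADC tumor, of 159 in all tumors, against 52 in normal lungs. In that tumor they reached 9.64 and 4.6 CPM, and in normal lungs at most 0.37 and 0.526 CPM. Wnt9b, a ligand known from kidney development, had 55 of its 58 tumor counts in the ADN tumor of mouse m335, against 16 counts in normal lungs. Wnt16, a ligand known from bone and skin, had 14 of its 16 tumor counts there, against 0 in normal lungs. Sfrp4 and Sfrp5, further Wnt-binding proteins, had 71 and 22 counts in tumors, against 39 and 23 in normal lungs. The remaining 7 genes under the filter (Dkk1, Dkk4, Fzd9, Wnt1, Wnt3, Wnt8a and Wnt8b) had under 10 counts in every library.

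**Figure D4:**
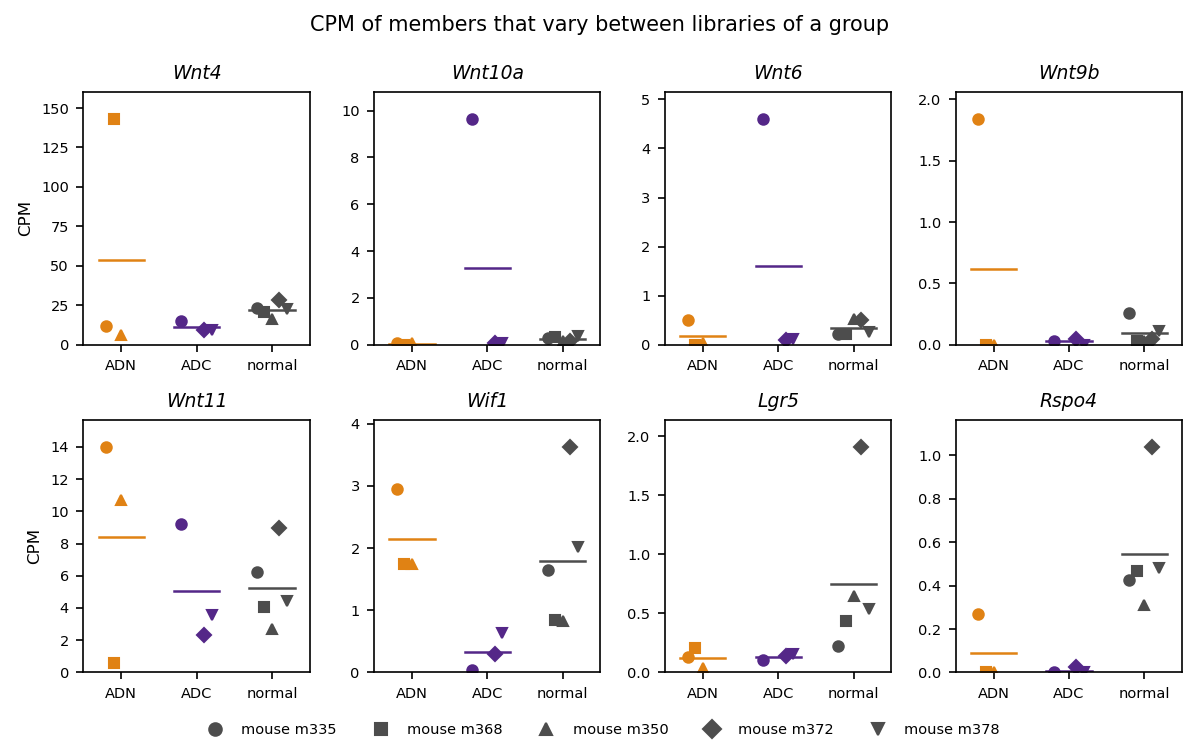
Level in CPM of 8 Wnt genes that vary between libraries of a group, with 1 point per library and a marker shape per mouse, for ADN tumors, ADC tumors and normal lungs. Wnt10a and Wnt6 are high in the ADC tumor of mouse m335, and Wnt9b in the ADN tumor of the same mouse.

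Of the other genes of the pathway, 88 from 7 lists were tested, and 4 rose and 11 fell in tumors, where 3.68% of all genes rose and 7.91% fell. Their median log2 fold change was 0.08. Among 10 co-receptors and alternative receptors, Reck (-2.02 ± 0.18) and Adgra2 (-1.53 ± 0.17), which together serve Wnt7a and Wnt7b signalling in endothelial cells of the brain, and Gpc3 (-2.12 ± 0.29), a glypican, fell and none rose. Among 22 known β-catenin targets, whose median was 0.59, Tnfrsf19 (-2.77 ± 0.20) and Tbx3 (-2.36 ± 0.35) fell, and Sp5 (0.85 ± 0.22) and Runx1 (0.72 ± 0.16) rose. Of 13 planar cell polarity genes, Celsr1, a cadherin, rose by 1.58 ± 0.24, and Prickle1 (-2.73 ± 0.18), Prickle2 (-2.02 ± 0.23) and Daam2 (-1.44 ± 0.37) fell. Among 14 nuclear factors, Lef1 (-2.64 ± 0.50) and Tle4 (-1.16 ± 0.24) fell and none rose. The highest level of Lef1 was 26.6 CPM in the normal lung of mouse m372, the library with the highest thymocyte marker sum. Of 19 cytoplasmic components Usp34 (0.80 ± 0.19) rose and Apc2 (-1.81 ± 0.48) fell. None of the 4 genes of Wnt secretion and none of the 6 other secreted antagonists changed.

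Marker levels of several lung cell types were also compared between tumors and normal lungs. The 11 fibroblast markers summed to 1340 to 2180 CPM in tumors and 3650 to 5260 CPM in normal lungs, and 5 of them fell. The 7 mesothelial markers summed to 31.3 to 87.8 CPM in tumors and 170 to 365 CPM in normal lungs, and 6 fell. For the 12 endothelial markers the sums were 685 to 1160 CPM in tumors and 3240 to 5390 CPM in normal lungs, and 11 fell. The 11 smooth muscle and pericyte markers summed to 281 to 531 CPM in tumors and 587 to 1110 CPM in normal lungs, and 5 fell. The 10 alveolar type 1 cell markers summed to 2800 to 5560 CPM in tumors and 5110 to 7970 CPM in normal lungs, and 4 fell, whereas of the 10 alveolar type 2 cell markers 3 rose. Of the 7 club cell and the 8 ciliated cell markers, 1 in each list fell, and the ranges of their sums overlapped between the groups. Over all genes tested, 7.91% fell and 3.68% rose. None of these markers was at 0 in every library. Their part in the changes of Wnt2, Wnt2b, Rspo1, Sfrp2, Dkk3 and the other Wnt genes was not tested.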

How the data were processed

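Per the labels' protocols, poly-A libraries were made with an Ion Total RNA-Seq kit from RNA whose integrity number was 7 or more, and were read on an Ion Proton. The submitters' processing notes name STAR 2.4.1d, Bowtie2 2.1.0, Partek and mm10 (GRCm38). What each tool did, which annotation was used and whether strand was counted is not given in the sources used here. The authors deposited expected counts for 36285 RefSeq transcripts, not normalized, which were summed by gene symbol to 24515 genes and rounded to whole numbers. Before rounding, 78.4% to 86.2% of these sums were whole to within 0.01.

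The filterByExpr function of edgeR, with the groups tumor and normal, left 15175 genes with 99.9% of the counts. TMM factors scaled the libraries, and the robust quasi-likelihood model of edgeR 4.0.16 was fitted in R 4.3.3. Mouse entered as a fixed block, because the normal lungs are paired with the tumors by the mouse named in the labels. The deviations of each tumor and of its own normal lung from their group means correlated at 0.24, 0.109 and 0.00493 for ADN tumors and at -0.0444, -0.0367 and 0.254 for ADC tumors. Tumors were compared with normal lungs in 1 fit, and ADN, ADC and normal in another, each with all 11 libraries. Tests were two-sided, with Benjamini-Hochberg adjustment over all 15175 genes and a threshold of 0.05. The standard error (SE) of a log2 fold change was derived from the F statistic. The scripts were tested on simulated data. Levels per kilobase use exon lengths of GENCODE M21, which matched all 65 transcripts.

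The Wnt genes and the pathway and marker lists were chosen with earlier results of these data known. Every gene that changed was given with its values, as were the most abundant gene of each family, the feedback genes, the Lgr and Lrp genes, Wif1, and genes under the filter with at least 10 counts in 1 library. From each pathway list the genes of lowest adjusted p are named. Alternatives were DESeq2 1.42.0, library totals in place of TMM, no filter, a stricter filter (1 CPM in 5 libraries), a filter over 3 groups (added after seeing the data), no block, mice at 7 months only, and leaving out each library or all libraries of mouse m335. Whether the mice came from separate litters is not given, and the 2 tumors of mouse m335 are not independent of each other.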

Additional observations from a re-analysis of the deposited data

Results flagged for a closer look

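By chance, Dixon's test at the 95% level sets a library apart in about 1 of 20 groups of normally distributed values. Low counts are not so distributed, so that share is no measure for the number found here. In 92 groups of libraries, the tumors or the normal lungs of each of 46 Wnt genes with at least 10 counts in a library, 14 had a highest or lowest library apart from the others by this test. In the ADN tumor of mouse m368 these were Dkk2 at 94.8 CPM, Wnt4 at 143.0 CPM and Fzd10, a Frizzled receptor, at 0.628 CPM. In the ADN tumor of mouse m335 they were Wnt9b at 1.84 CPM, Wnt16 at 0.469 CPM and Rspo4 at 0.268 CPM. Among ADC tumors they were Wnt10a at 9.64 CPM and Wnt6 at 4.6 CPM in mouse m335, Sfrp4 at 0.969 CPM in mouse m372 and Wnt7b at 52.8 CPM in mouse m378. Among normal lungs, Lgr5 at 1.91 CPM and Rspo4 at 1.04 CPM were high in mouse m372, Wnt2b at 5.72 CPM was high in mouse m368, and Fzd10 at 0.113 CPM was low in mouse m335.

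For Wif1 and Lgr4 the ADN and ADC tumors lay on opposite sides of their own normal lungs. Only mouse m335 gave tumors of both tags, so elsewhere tag cannot be told apart from mouse, sex or time after NNK. For Lgr4 the ADC tumors were almost level with theirs, at log2 ratios of 0.08, 0.03 and 0.15 after adding 0.5 CPM. The direct contrast of ADC over ADN tumors was -4.55 ± 1.11 for Wif1 (adjusted p = 0.706) and 1.25 ± 0.49 for Lgr4 (adjusted p = 0.744, edgeR), so neither passed the threshold.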

How the results depend on the processing

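Of the 12 genes called in tumors against normal lungs, Axin2, Dkk2, Dkk3, Sfrp2, Wnt2, Wnt3a and Wnt7b were called under all 19 alternatives. Fzd5, Notum, Rspo1, Wnt9a and Wnt2b lost the call in 7, 7, 9, 9 and 10 of them, Wnt2b at adjusted p-values of 0.0517 to 0.12. No called gene changed sign. The count of 12 became 17 with DESeq2, which added Nkd2, Rspo3, Sfrp1, Wnt10b and Wnt5b as lower. Calls over all genes rose as well with DESeq2, from 1759 to 3286. The count of Wnt genes became 18 in mice at 7 months, where Fzd6, Fzd7 and Rnf43 were added as higher and Fzd4, Rspo3, Sfrp1 and Wnt4 as lower. When libraries were left out it was 7 to 15. In ADN tumors the count of 6 became 11 without the replicate block and 15 with DESeq2. Over all genes DESeq2 raised the ADN calls from 1142 to 2931. The ADN count was 0 to 9 when libraries were left out, and no Wnt gene was called in every setting. In ADC tumors the count of 7 became 14 with DESeq2, where calls over all genes rose from 757 to 1858. The ADC count was 1 to 6 when libraries were left out, 4 without mouse m335, and Wnt2 was called in all 18 alternatives. For ADC against ADN tumors the count of 0 became 1 with DESeq2. Without the block the counts in tumors and in ADC tumors were 12 and 10. Scaling by library totals moved the median log2 fold change of all genes from -0.03 to -0.22, and 17.3% of called genes were then higher in tumors, against 31.7% with TMM and 39.2% with DESeq2, while the Wnt genes kept 3 higher and 9 lower. For genes under the filter, ratios of summed counts with intervals for counting error stand in place of a test.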
